A study of Mus musculus with 28 samples.

Results

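The genes followed here are 7 of the tumour necrosis factor (TNF) superfamily measured across 10 groups of mouse T cells: the receptors Tnfrsf4 (OX40), Tnfrsf9 (4-1BB), Tnfrsf18 (GITR), Cd27 and Fas, and the ligands Tnfsf11 (RANKL) and Fasl. Members were found by their symbol in the platform annotation; the list of symbols was drawn up with earlier results of these data known. They were the 7 of 12393 genes, or 11 of 20380 probe sets with a single symbol, that carry one of these names. The CD8 cells carried the OT1 and the CD4 cells the AND T cell receptor transgene, both on the C57BL/6N background. All had been cultured for 2 days in medium with 5 ng per ml of interleukin 7. For day 2, stimulated cells were cultured on plates coated with 10 µg per ml of antibodies to CD3 and CD28, and unstimulated cells on uncoated plates (3 arrays in each of the 4 groups). For day 5, cells spent 3 further days in host mice after culture and were sorted from spleen and lymph nodes. Continuous cells were stimulated and then moved into hosts that express antigen (named dtg-O or -M), transient cells were stimulated and moved into hosts free of antigen, and unstimulated cells were moved into hosts free of antigen. Each day 5 group had 3 arrays except the CD4 transient and CD4 unstimulated groups, which had 2. Every CD8 against CD4 difference joins lineage and receptor, and those that use continuous cells also join antigen. These cannot be told apart. The labels do not say whether arrays of a group came from separate animals, so that p-values measure the spread between arrays, which may be technical.

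TNF receptors on T cells pass signals from membrane-bound ligands on partner cells. Receptors such as OX40, 4-1BB, GITR and CD27 bind TRAF adaptor proteins, activate NF-kB and support the survival and division of T cells after antigen contact, and are therefore called costimulators. Fas instead carries a death domain and, when bound by Fas ligand, can start apoptosis through FADD and caspase-8. RANKL, made by activated T cells, binds the receptor RANK (Tnfrsf11a) on dendritic cells and osteoclast precursors. Tnfrsf4, Tnfrsf9 and Tnfrsf18 are also high on regulatory T cells.

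The unit throughout is the log2 signal per probe set, so that 1 unit is a 2-fold difference in signal. Levels of different genes are not compared, since each probe set has its own response. The number of arrays per group limits the precision. The third unstimulated array of each lineage on day 2 stood apart, with a median over all probe sets of 4.97 (CD8) and 4.83 (CD4), against 6.29 to 6.53 on the other 26 arrays. These 2 arrays also went against their labels: the library labelled CD8 had Cd8a at 5.78 and Cd8b1 at 4.79, and the library labelled CD4 had Cd8a at 9.88, Cd8b1 at 10.50 and Cd4 at 5.40. The members' day 2 differences are therefore given with all arrays and without both of them. On the other 26 arrays Cd8a was at 10.52 to 12.99 in CD8 groups and at 5.15 to 6.90 in CD4 groups. On all 28 arrays the 5 measured pan T cell markers averaged 10.30 to 12.25. The difference between the 3′ and 5′ probe sets of beta-actin, a sign of RNA quality, was 1.11 to 1.69 in stimulated and 2.28 to 4.30 in unstimulated cells on day 2. On day 5 it was 1.92 to 2.44 in CD8 unstimulated and 2.42 to 2.73 in CD4 transient cells, against 0.31 to 1.02 in the other groups. In these bulk samples, fewer cells that express a gene and less RNA per cell cannot be told apart.

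**Figure D1:**
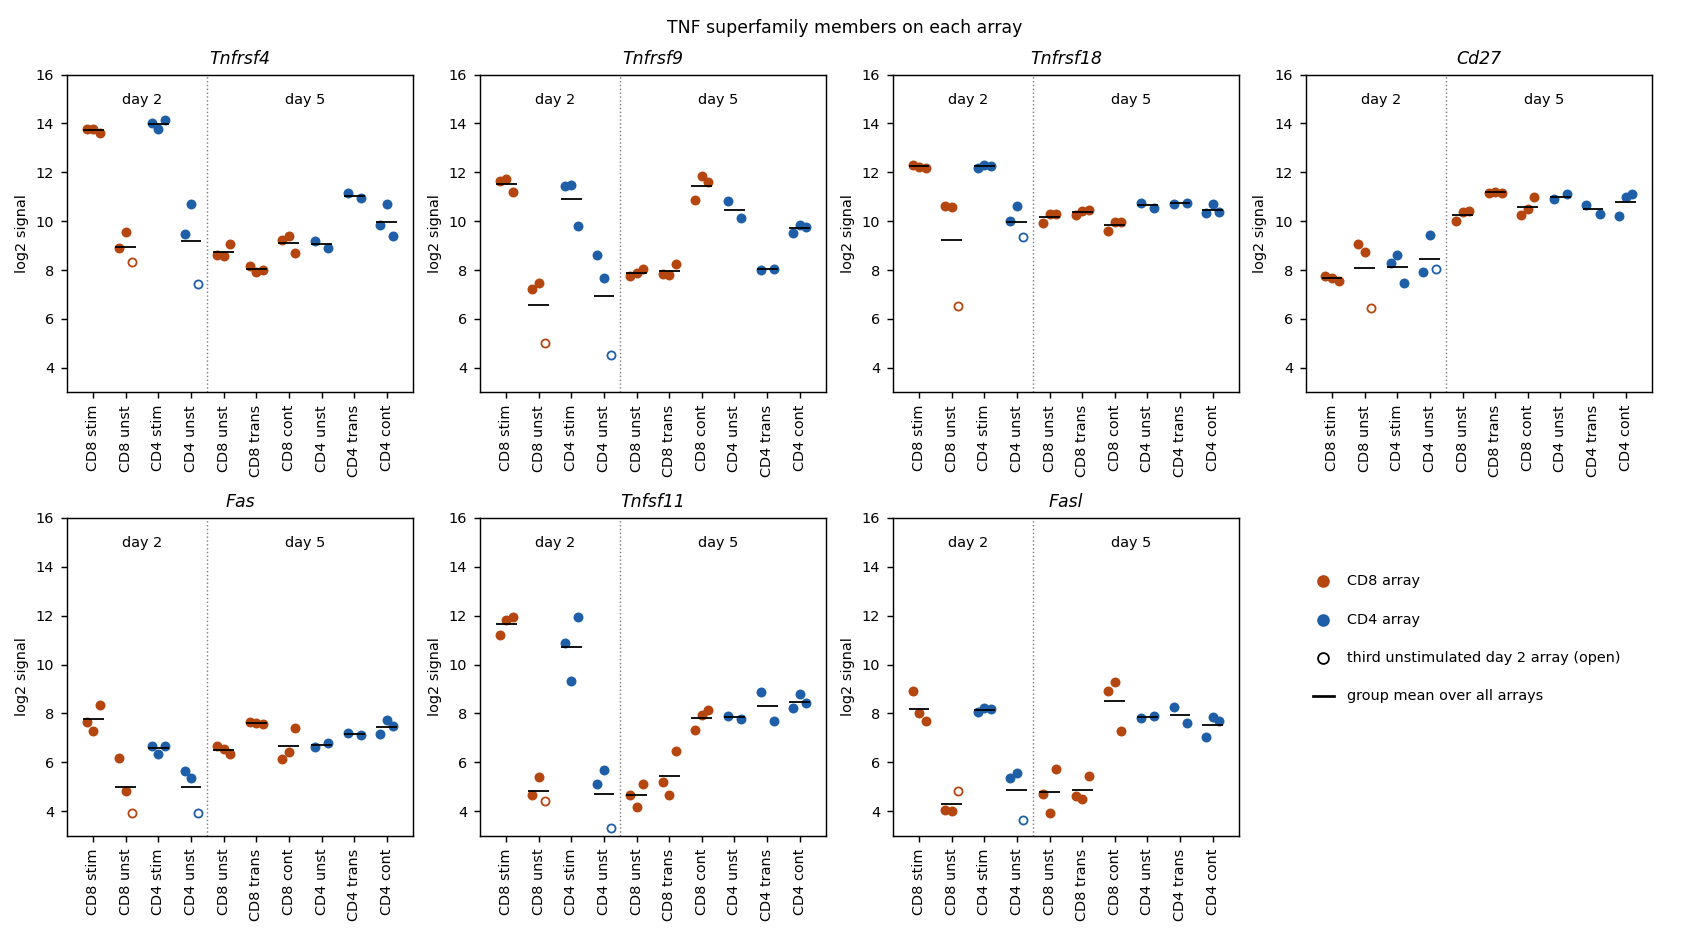
Log2 signal of the 7 genes (1 panel each) on each of the 28 arrays, by group: stimulated (stim), unstimulated (unst), transient (trans) and continuous (cont). Orange points are CD8 and blue points CD4 arrays, open points are the third unstimulated day 2 arrays, and lines are group means over all arrays; Tnfsf11 reaches 9.32 to 11.93 on the 6 stimulated day 2 arrays, against 3.33 to 5.70 on the 6 unstimulated ones.

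Stimulation for 2 days raised the costimulatory receptors Tnfrsf4 and Tnfrsf9 and the ligands Tnfsf11 and Fasl in both lineages, by the brightest probe set of each gene; the dimmer second probe sets of the ligands were not called. In CD8 cells 6 of the 7 genes rose and none fell, where 7.49% of all genes rose and 0.863% fell (8.35% in either direction). In CD4 cells 4 rose and none fell, where 10.7% of all genes rose and 0.718% fell (11.4% in either direction). A gene is said to rise or fall here only at an adjusted p below 0.05 in the moderated limma test, adjusted over all 12393 genes. The median difference of the 7 genes was 3.89 in CD8 and 3.31 in CD4 cells, against 0.14 for all genes in each lineage. Without the third unstimulated arrays, 6 genes rose and none fell in each lineage, where the share of all genes that rose was 16.5% in CD8 and 26.2% in CD4 cells, that fell 21.4% in CD8 and 39.4% in CD4 cells, and in either direction 37.9% in CD8 and 65.7% in CD4 cells.

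Tnfrsf4, whose product OX40 sustains T cells late in a response, had signals of 13.75, 13.77 and 13.63 in stimulated CD8 cells, against 8.92, 9.56 and 8.34 in unstimulated ones. In CD4 cells it had 14.03, 13.79 and 14.12 when stimulated, against 9.50, 10.72 and 7.42 when unstimulated. All 6 stimulated arrays lay above all 6 unstimulated arrays, by more than 2 units. The difference was 4.77 ± 0.66 (SE), or 27.4-fold, in CD8 cells (adjusted p = 0.000637) and 4.77 ± 0.66, or 27.3-fold, in CD4 cells (adjusted p = 7e-04). Without the third unstimulated arrays it was 4.48 ± 0.33 in CD8 and 3.87 ± 0.33 in CD4 cells, and both remained called.

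Tnfrsf9, which encodes the costimulator 4-1BB, had 11.66, 11.74 and 11.21 in stimulated CD8 cells, against 7.24, 7.49 and 5.01 in unstimulated ones. Stimulated CD4 cells had 11.44, 11.49 and 9.80, against 8.63, 7.68 and 4.52 in unstimulated CD4 cells. The groups of each lineage did not overlap, and the third CD4 array was the lowest of both its groups. Tnfrsf9 rose by 4.96 ± 0.93 in CD8 cells (adjusted p = 0.00538) and by 3.97 ± 0.93 in CD4 cells (adjusted p = 0.0147). The CD4 call was lost without the first (adjusted p = 0.0665) or the second stimulated CD4 array (adjusted p = 0.0614). Without the third unstimulated arrays the difference was 4.17 ± 0.50 in CD8 cells and 2.76 ± 0.50 in CD4 cells (adjusted p = 0.00146), both called.

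Tnfrsf18, the gene of the costimulator GITR, lies next to Tnfrsf4 on chromosome 4 (chr4:156026322-156028894 beside chr4:156013595-156016613, GRCm38.p6). It had 12.31, 12.24 and 12.18 in stimulated CD8 cells, against 10.60, 10.59 and 6.55 in unstimulated ones. In CD4 cells the signals were 12.17, 12.31 and 12.27 with stimulation, against 10.01, 10.60 and 9.34 without it. The stimulated arrays were tightly grouped and above every unstimulated array, and the third unstimulated CD8 array was far below the other 2. The gene rose by 3.00 ± 0.84 in CD8 cells (adjusted p = 0.0432), a call lost when any stimulated CD8 array was left out (adjusted p = 0.123 to 0.131). In CD4 cells the difference of 2.27 ± 0.84 did not pass the test (adjusted p = 0.1). Without the third arrays it rose by 1.65 ± 0.19 in CD8 (adjusted p = 0.000343) and by 1.94 ± 0.19 in CD4 cells (adjusted p = 7.97e-05), and the CD8 value was 1 unit or more below that with all arrays.

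Cd27 encodes a receptor that resting T cells already carry and whose ligand is CD70. Its signals were 7.77, 7.66 and 7.54 in stimulated CD8 cells, against 9.08, 8.74 and 6.46 in unstimulated ones. Stimulated CD4 cells had 8.30, 8.61 and 7.47, against 7.92, 9.45 and 8.03 in unstimulated CD4 cells. It was the only one of the 7 genes whose groups overlapped in both lineages. Over all genes the groups did not overlap for 39.8% in CD8 and 33.1% in CD4 cells. The differences of -0.44 ± 0.65 in CD8 (adjusted p = 0.806) and -0.34 ± 0.65 in CD4 cells (adjusted p = 0.821) did not pass the test. Without the third arrays the CD8 groups did not overlap, and the difference was -1.26 ± 0.44 (adjusted p = 0.0519). After quantile normalization of all arrays Cd27 was called lower in CD8 (-1.40, adjusted p = 0.0168) and CD4 cells (-1.39, adjusted p = 0.0152), and with array weights in CD8 cells (-1.17, adjusted p = 0.00847).

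The death receptor gene Fas had 7.64, 7.29 and 8.35 in stimulated CD8 cells, against 6.16, 4.82 and 3.94 in unstimulated ones. In CD4 cells it had 6.68, 6.34 and 6.68 with stimulation, against 5.65, 5.37 and 3.94 without. Stimulated arrays were higher than unstimulated ones in each lineage, with no overlap. The rise of 2.79 ± 0.60 in CD8 cells was called (adjusted p = 0.012), and was not without the third stimulated CD8 array (adjusted p = 0.0712). The CD4 difference of 1.58 ± 0.60 was not called (adjusted p = 0.109). Without the third unstimulated arrays the CD8 difference was 2.27 ± 0.41 (adjusted p = 0.00336) and the CD4 difference 1.06 ± 0.41 (adjusted p = 0.045).

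Of the ligands, Tnfsf11 had the largest difference of the 7 genes. Its signals were 11.21, 11.83 and 11.93 in stimulated CD8 cells, against 4.64, 5.38 and 4.43 in unstimulated ones. Stimulated CD4 cells had 10.90, 9.32 and 11.93, against 5.13, 5.70 and 3.33 in unstimulated CD4 cells. The lowest stimulated array was more than 3 units above the highest unstimulated array. Tnfsf11 rose by 6.84 ± 0.69 in CD8 cells, or 114.5-fold (adjusted p = 6.44e-05), and by 6.00 ± 0.69 in CD4 cells, or 63.9-fold (adjusted p = 0.000193). Each unstimulated array had Tnfsf11 below its own median over all probe sets, so that both folds start from a dim signal. Without the third arrays the rise was 6.64 ± 0.64 in CD8 and 5.30 ± 0.64 in CD4 cells, and both were called. The second, dimmer probe set of Tnfsf11 differed by 1.89 ± 0.67 in CD8 (adjusted p = 0.104) and by 0.76 ± 0.67 in CD4 cells (adjusted p = 0.573), and was not called in either.

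Fasl, the ligand of Fas and a means by which killer T cells trigger apoptosis, had 8.90, 8.00 and 7.68 in stimulated CD8 cells, against 4.06, 4.03 and 4.82 in unstimulated ones. In CD4 cells it had 8.06, 8.21 and 8.19 with stimulation, against 5.35, 5.56 and 3.64 without. The groups were apart in both lineages by more than 2 units. Fasl rose by 3.89 ± 0.54 in CD8 (adjusted p = 0.000637) and by 3.31 ± 0.54 in CD4 cells (adjusted p = 0.00191). Without the third arrays it rose by 4.15 ± 0.31 in CD8 and by 2.70 ± 0.31 in CD4 cells. Its second, dimmer probe set differed by 0.74 ± 0.49 in CD8 (adjusted p = 0.442) and by 1.43 ± 0.49 in CD4 cells (adjusted p = 0.0833), neither of them called.

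**Figure D2:**
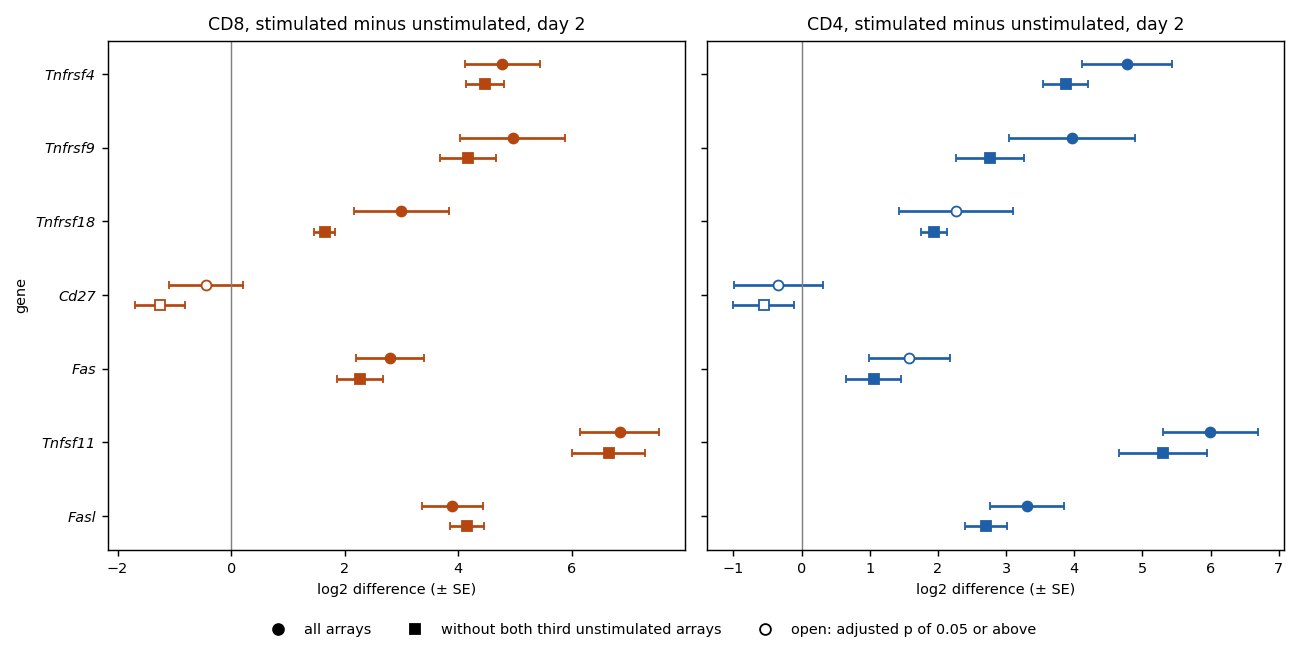
Log2 difference of stimulated minus unstimulated cells on day 2 for each gene, with its standard error, in CD8 (left) and CD4 cells (right). Circles use all arrays and squares leave out the third unstimulated arrays; filled symbols have an adjusted p below 0.05, and Cd27 lies below 0 in both panels.

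No difference between the lineages in the response to stimulation was called for any of the 7 genes, nor for any other gene (0% of all genes), and 70 genes had an unadjusted p below 0.05. The CD8 minus CD4 difference of the response was 1.21 ± 0.85 for Fas, 0.99 ± 1.31 for Tnfrsf9, 0.84 ± 0.98 for Tnfsf11 and 0.01 ± 0.93 for Tnfrsf4. The standard errors are close to 1 unit, the size of a 2-fold difference between the lineages. Without the third unstimulated arrays 2.49% of all genes were called and again none of the 7; the value nearest to a call was that of Fasl, 1.45 ± 0.43 (adjusted p = 0.102). Between stimulated CD8 and stimulated CD4 cells none of the 7 genes was called, where 0.0242% of all genes were (147 genes had an unadjusted p below 0.05), and without the third unstimulated arrays none of the 7 where 0.702% were. Fas had 7.64, 7.29 and 8.35 in CD8 cells, against 6.68, 6.34 and 6.68 in CD4 cells, with no overlap and a difference of 1.20 ± 0.60 (adjusted p = 1). It was called with array weights (1.12, adjusted p = 0.00783).

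Other genes of the pathway gave a mixed picture on day 2. Of all genes 7.49% rose and 0.863% fell in CD8 cells, and 10.7% rose and 0.718% fell in CD4 cells. Among 12 other TNF ligands measured, 2 rose and 1 fell in CD8 cells, and 3 rose and 1 fell in CD4 cells. Lta (lymphotoxin alpha) rose by 3.63 ± 0.80 in CD8 and 3.33 ± 0.80 in CD4 cells. Ltb (lymphotoxin beta), high in resting lymphocytes, fell by 2.63 on the log2 scale in CD8 and by 2.55 in CD4 cells. Cd70, the ligand of CD27, rose by 5.15 ± 1.23 in CD8 cells (adjusted p = 0.0207), and its difference of 3.79 ± 1.23 in CD4 cells missed the call (adjusted p = 0.0633). Of 20 other TNF receptors measured, 1 rose and none fell in each lineage: Tnfrsf13b (TACI), by 2.55 ± 0.66 in CD8 and 3.23 ± 0.66 in CD4 cells. Of 17 TRAF and NF-kB genes, 4 rose in CD8 and 6 in CD4 cells and none fell. These included the NF-kB subunits Rel (3.38 in CD8, 3.24 in CD4), Nfkb2 (2.99 and 3.47, in the same order) and Relb (2.93 and 3.90). Of 8 death receptor signalling genes none was called in CD8 cells, while Bid, which links caspase-8 to mitochondria, and Cflar, an inhibitor of caspase-8, rose in CD4 cells by 2.23 ± 0.66 and 1.99 ± 0.59. The ligand counts without the third unstimulated arrays were 3 higher and 2 lower in CD8 and 3 higher and 3 lower in CD4 cells. For receptors they were 2 higher and 6 lower in CD8 and 2 higher and 11 lower in CD4 cells. For TRAF and NF-kB genes they were 7 higher and 1 lower in CD8 and 10 higher and 1 lower in CD4 cells, and for death receptor genes none in CD8 and 4 higher in CD4 cells. Of all genes 16.5% were then higher and 21.4% lower in CD8 cells, and 26.2% higher and 39.4% lower in CD4 cells. Without these arrays Lta differed by 2.61 in CD8 and 2.85 in CD4 cells, Ltb by -3.15 and -2.57, and Cd70 by 5.02 (adjusted p = 0.0356) and 3.41 (adjusted p = 0.0849), in the same order. Rel, Nfkb2 and Relb then differed by 2.34 to 2.83 in CD8 and by 2.49 to 3.62 in CD4 cells, and Bid and Cflar by 2.12 and 1.87 in CD4 cells, all called.

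By their brightest probe sets Tnfrsf9, Tnfsf11 and Fasl rose in both lineages on day 2 and, on day 5, in continuous CD8 cells against both other CD8 groups. Their promoter sequences are printed for that reason, from RefSeq on GRCm38.p6, as the 250 bases before an annotated start, 5′ to 3′ on the gene's strand. Capitals mark letters of 3 motifs searched on both strands: the NF-kB consensus, the AP-1 motif TGANTCA and the NFAT core GGAAA, which overlap where a run of capitals is long. All 7 genes had an entry, and Tnfrsf9 had 2 starts.
Tnfrsf9, first start, chr4:150919905-150920154, plus strand: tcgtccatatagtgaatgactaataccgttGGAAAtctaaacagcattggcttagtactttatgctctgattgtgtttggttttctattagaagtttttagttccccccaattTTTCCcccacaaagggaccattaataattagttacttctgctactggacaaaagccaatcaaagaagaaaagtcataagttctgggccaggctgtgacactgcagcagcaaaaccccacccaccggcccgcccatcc
Tnfrsf9, second start, chr4:150927749-150927998, plus strand: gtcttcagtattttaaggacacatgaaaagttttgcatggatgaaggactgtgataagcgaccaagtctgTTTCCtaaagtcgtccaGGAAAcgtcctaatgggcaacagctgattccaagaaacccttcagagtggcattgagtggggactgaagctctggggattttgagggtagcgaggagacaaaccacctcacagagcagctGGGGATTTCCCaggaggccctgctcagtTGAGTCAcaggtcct
Tnfsf11, chr14:78308044-78308293, minus strand: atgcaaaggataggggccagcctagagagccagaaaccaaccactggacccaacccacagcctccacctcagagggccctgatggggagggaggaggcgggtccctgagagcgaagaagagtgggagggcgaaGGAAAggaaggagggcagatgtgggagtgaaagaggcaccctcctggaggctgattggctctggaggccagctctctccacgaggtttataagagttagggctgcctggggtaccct
Fasl, chr1:161788496-161788745, minus strand: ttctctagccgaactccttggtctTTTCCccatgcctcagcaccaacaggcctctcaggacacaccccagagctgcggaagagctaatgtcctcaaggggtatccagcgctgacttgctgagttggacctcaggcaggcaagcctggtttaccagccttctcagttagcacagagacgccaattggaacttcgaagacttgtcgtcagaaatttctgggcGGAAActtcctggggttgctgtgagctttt

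The second start of Tnfrsf9 held overlapping NF-kB matches 43 and 42 bases and an AP-1 match 15 bases upstream of the start, with 3 NFAT cores. Its first start held 2 NFAT cores and neither of the other motifs. Tnfsf11 held 1 NFAT core and Fasl 2, and neither held the other motifs. Among the other promoters, that of Fas held an AP-1 match, and the rest held 1 or 2 NFAT cores and neither of the other motifs. Of all 32851 promoter windows of 300 bases, 8.5% held the NF-kB consensus, 7.8% the AP-1 motif and 61.3% an NFAT core. A match of letters is a description of the window and says nothing of binding.

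In CD8 cells on day 5, continuous antigen went with higher Tnfrsf9, Fasl, Tnfsf11 and Tnfrsf4 and with lower Fas and Tnfrsf18 than transient stimulation. Of the 7 genes 4 rose and 2 fell, where 13.6% of all genes rose and 13.6% fell (27.2% in either direction), and the arrays of the 2 groups did not overlap for any of the 7, as for 41.6% of all genes. The median difference of the 7 genes was 1.09, against -0.05 for all genes. In an alternative with all 28 arrays in 1 fit, only 3 of the 6 calls held (Tnfrsf9, Tnfsf11 and Fasl), and no gene of the 7 was called for transient minus unstimulated cells of either lineage, for either other CD4 comparison of day 5, or between continuous CD8 and CD4 cells.

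Tnfrsf9 had 10.89, 11.84 and 11.59 in continuous CD8 cells, against 7.83, 7.80 and 8.26 in transient ones. Every continuous array was above every transient array by more than 2 units. The rise was 3.47 ± 0.23, or 11.1-fold (adjusted p = 3.03e-06). Fasl had 8.92, 9.28 and 7.28 in continuous and 4.60, 4.49 and 5.45 in transient CD8 cells. The third continuous array was the lowest of its group and still higher than all transient arrays. Fasl rose by 3.64 ± 0.50, or 12.5-fold (adjusted p = 0.000178). Each transient CD8 array had Fasl below its own median over all probe sets, so that this fold starts from a dim signal.

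Tnfsf11 had 7.33, 7.93 and 8.14 in continuous CD8 cells, against 5.18, 4.65 and 6.47 in transient ones, and rose by 2.37 ± 0.42 (adjusted p = 0.000887). Tnfrsf4 had 9.24, 9.41 and 8.72 in continuous and 8.15, 7.92 and 8.02 in transient CD8 cells. It rose by 1.09 ± 0.27 (adjusted p = 0.00769), so that Tnfrsf4 and Tnfrsf9, both costimulators, moved the same way by amounts that differ several-fold. No single array left out ended either call.

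Fas had 6.14, 6.42 and 7.41 in continuous CD8 cells, against 7.67, 7.60 and 7.55 in transient ones. The transient arrays lay close together and the third continuous array came near them. Fas fell by 0.94 on the log2 scale (SE 0.25, adjusted p = 0.011), and the call was lost without the first (adjusted p = 0.0601) or second continuous array (adjusted p = 0.0522). Tnfrsf18 had 9.61, 9.96 and 9.96 in continuous and 10.24, 10.43 and 10.44 in transient CD8 cells. It fell by 0.53 (SE 0.14, adjusted p = 0.0132), a call lost without the first continuous array (adjusted p = 0.0747). Cd27 had 10.26, 10.50 and 11.00 in continuous and 11.17, 11.21 and 11.15 in transient CD8 cells, a difference of -0.59 ± 0.23 that was not called (adjusted p = 0.0761).

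Against unstimulated CD8 cells, continuous cells had higher Tnfrsf9, Fasl and Tnfsf11 only, where 21.4% of all genes rose and 25.9% fell (47.3% in either direction). Unstimulated CD8 cells had Tnfrsf9 at 7.74, 7.89 and 8.04, Fasl at 4.70, 3.93 and 5.71, and Tnfsf11 at 4.68, 4.19 and 5.10. The continuous arrays given above were higher than all of them. In either direction these 2 groups did not overlap for 55.1% of all genes. The differences were 3.55 ± 0.23 for Tnfrsf9 (adjusted p = 1.4e-07), 3.71 ± 0.50 for Fasl (adjusted p = 4.85e-05) and 3.14 ± 0.42 for Tnfsf11 (adjusted p = 3.9e-05; 0.30 and adjusted p = 0.233 by its second probe set, not called). The other 4 genes differed by -0.32 to 0.37 and were not called. These 2 comparisons of continuous cells share the continuous arrays. The beta-actin difference was 0.31 to 0.56 in continuous and 1.92 to 2.44 in unstimulated CD8 cells. The myeloid marker mean was 5.43 to 6.87 in continuous and 5.06 to 9.67 in unstimulated CD8 cells. Their part in the differences from unstimulated cells was not tested.

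After transient stimulation CD8 cells had more Cd27 and Fas than unstimulated cells, and no gene of the 7 fell, where 16.3% of all genes rose and 15.5% fell (31.8% in either direction). Cd27 had 11.17, 11.21 and 11.15 in transient and 10.01, 10.37 and 10.43 in unstimulated CD8 cells. The difference was 0.91 ± 0.23 (adjusted p = 0.00837). Fas had 7.67, 7.60 and 7.55 in transient cells, against 6.65, 6.55 and 6.35 in unstimulated ones, a difference of 1.09 ± 0.25 (adjusted p = 0.00416). Transient arrays were above unstimulated arrays for both genes, with no overlap. In either direction the groups did not overlap for 43.2% of all genes. Tnfrsf4 had 8.15, 7.92 and 8.02 in transient and 8.61, 8.56 and 9.08 in unstimulated CD8 cells; the difference of -0.72 ± 0.27 was not called (adjusted p = 0.0557), and was called in 5 alternatives (adjusted p = 0.0154 to 0.0482). The myeloid marker mean of 9 genes was 5.16 to 7.43 in transient and 5.06 to 9.67 in unstimulated CD8 cells, and the beta-actin difference 0.66 to 1.02 in transient against 1.92 to 2.44 in unstimulated cells; their part in these results was not tested.

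**Figure D3:**
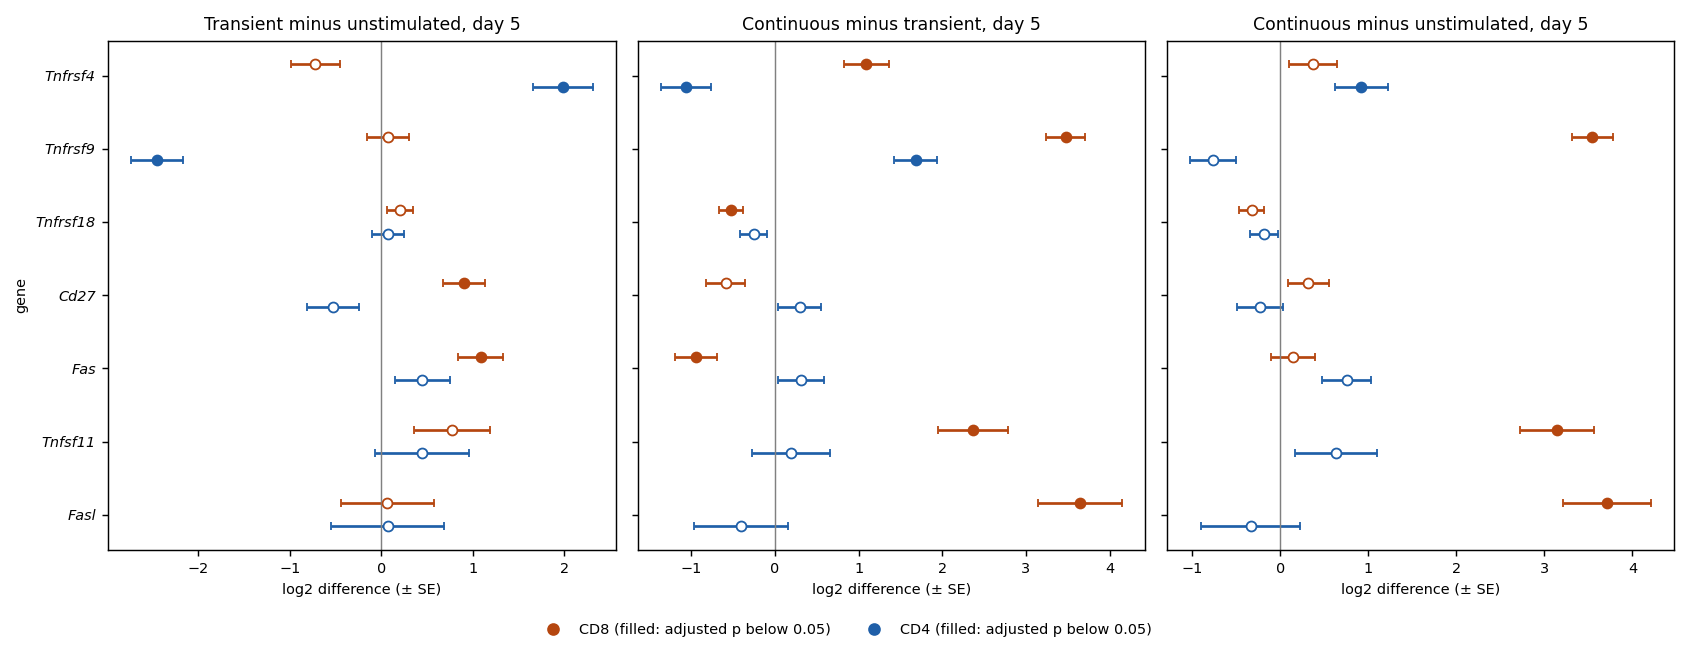
Log2 differences on day 5 with their standard errors for each gene, between transient and unstimulated (left), continuous and transient (middle) and continuous and unstimulated cells (right), in CD8 (orange) and CD4 cells (blue). Filled circles have an adjusted p below 0.05; Fasl reaches 3.64 in CD8 cells and -0.40 in CD4 cells for continuous minus transient, and Tnfrsf4 is 1.09 in CD8 and -1.06 in CD4 cells.

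In CD4 cells on day 5 only Tnfrsf4 and Tnfrsf9 of the 7 genes changed, and they changed in opposite directions. Transient CD4 cells had more Tnfrsf4 (11.13 and 10.95, against 9.20 and 8.92 in unstimulated cells) and less Tnfrsf9 (8.01 and 8.04, against 10.84 and 10.11). The groups of 2 arrays were well apart for each gene, and did not overlap for 62.5% of all genes. The differences were 1.98 ± 0.33 (adjusted p = 0.000815) and -2.45 ± 0.28 (adjusted p = 5.95e-05), where 9.66% of all genes rose and 13.1% fell (22.8% in either direction). The other 5 genes differed by -0.53 to 0.45 and were not called.

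Continuous CD4 cells had Tnfrsf4 at 9.84, 10.68 and 9.41 and Tnfrsf9 at 9.52, 9.86 and 9.75. Against transient cells Tnfrsf4 fell by 1.06 on the log2 scale (SE 0.30, adjusted p = 0.0135) and Tnfrsf9 rose by 1.68 ± 0.26 (adjusted p = 0.000219), where 17.6% of all genes rose and 16.5% fell (34.1% in either direction). The Tnfrsf4 call was lost without the first transient (adjusted p = 0.0881) or the third continuous array (adjusted p = 0.0517). Against unstimulated CD4 cells Tnfrsf4 rose by 0.92 ± 0.30 (adjusted p = 0.0444), where 9.92% of all genes rose and 10.8% fell (20.7% in either direction). That call was lost without any one of 4 of the 5 arrays compared (adjusted p = 0.0682 to 0.25). Tnfrsf9 lay 0.77 below unstimulated cells and was not called (adjusted p = 0.0521; with a replicate block -0.84, adjusted p = 0.0385).

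The other 5 genes were not called between the 3 CD4 groups by their brightest probe sets. Fasl had 7.01, 7.86 and 7.71 in continuous, 8.25 and 7.61 in transient and 7.82 and 7.90 in unstimulated CD4 cells. Its second probe set was called higher in continuous than in transient CD4 cells (0.74, adjusted p = 0.0477). Tnfsf11 had 8.21, 8.80 and 8.44 in continuous, 8.88 and 7.71 in transient and 7.91 and 7.79 in unstimulated CD4 cells. Fas had 7.17, 7.73 and 7.49 in continuous, 7.19 and 7.12 in transient and 6.61 and 6.80 in unstimulated CD4 cells, and its difference of 0.75 ± 0.28 between continuous and unstimulated cells was not called (adjusted p = 0.0708). Of 16 alternatives, 2 called that Fas difference. Cd27 ranged from 10.21 to 11.13 and Tnfrsf18 from 10.35 to 10.76 over these 7 arrays.

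The 2 CD4 transient arrays carried more B cell marker signal than other CD4 cells of day 5. The mean of 7 measured B cell genes was 7.38 and 8.77 in transient, against 5.09 to 5.16 in continuous and 5.03 and 5.79 in unstimulated CD4 cells, and Cd79b was at 9.90 to 11.91, against 4.93 to 5.74 and 5.17 to 6.62. Of these 7 B cell genes 4 rose and none fell in transient against unstimulated cells, and none rose and 6 fell in continuous against transient cells. Over all genes 9.66% rose and 13.1% fell in the first comparison, and 17.6% rose and 16.5% fell in the second. The myeloid marker mean was 6.82 and 9.54 in transient CD4 cells, Cd4 was at 7.68 and 7.88, against 9.22 to 9.86 in the other CD4 groups, and the beta-actin difference was higher. In the same arrays Tnfrsf13c and Cd40, receptors of B cells, rose by 2.47 ± 0.52 and 1.68 ± 0.38. The part of these in the Tnfrsf4 and Tnfrsf9 results was not tested. The regulatory T cell marker mean of 5 genes, a cell type that carries OX40, 4-1BB and GITR, was 6.25 to 6.44 in continuous, 6.79 and 7.08 in transient and 6.78 and 6.83 in unstimulated CD4 cells, and 5.44 to 6.32 in the CD8 groups of day 5. Foxp3, its defining gene, was at 4.70 to 5.29 in continuous, 4.71 to 5.30 in transient and 5.93 to 6.05 in unstimulated CD4 cells.

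The difference between continuous and transient cells was next compared between CD8 and CD4 cells, which differ in lineage, receptor and antigen together. The 2 CD4 transient arrays enter each of these values. The part of their B cell, myeloid and beta-actin signal, given above, was not tested. The CD8 minus CD4 difference of continuous minus transient was called for 5 of the 7 genes, 4 higher and 1 lower, where 8.13% of all genes were higher and 10.7% lower (18.9% in either direction). It was 4.05 ± 0.76 for Fasl (adjusted p = 0.00249; 0.96 and adjusted p = 0.0866 by its second probe set, not called), 2.16 ± 0.40 for Tnfrsf4 (adjusted p = 0.00245) and 1.79 ± 0.35 for Tnfrsf9 (adjusted p = 0.00315). For Tnfrsf4 the directions were opposite, with 1.09 in CD8 and -1.06 in CD4 cells, while for Tnfrsf9 both lineages rose and CD8 cells more. The difference was 2.18 ± 0.62 for Tnfsf11 (adjusted p = 0.027; 0.77 and adjusted p = 0.0986 by its second probe set, not called) and -1.25 ± 0.37 for Fas (adjusted p = 0.0309). Leaving out single arrays ended the Tnfsf11 call (adjusted p up to 0.149, without the first CD4 transient array) and the Fas call (adjusted p up to 0.084, without the second CD4 transient array), and with a replicate block Fas had an adjusted p of 0.0503.

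For transient minus unstimulated the CD8 minus CD4 difference was called for 3 of the 7 genes, 2 higher and 1 lower, where 18.5% of all genes were higher and 18.9% lower (37.5% in either direction). Tnfrsf4 differed by -2.70 ± 0.42 (adjusted p = 0.000216), Tnfrsf9 by 2.52 ± 0.37 (adjusted p = 0.00012; 0.69 and adjusted p = 0.244 by its second probe set, not called) and Cd27 by 1.44 ± 0.36 (adjusted p = 0.007). For Tnfrsf4 and Tnfrsf9 the CD4 side held the larger change, at 1.98 and -2.45, against -0.72 and 0.07 in CD8 cells. Cd27 was 0.91 in CD8 and -0.53 in CD4 cells. Both contrasts of differences share the transient arrays, and the part of the marker signal of the CD4 ones was not tested here either.

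Among unstimulated cells in antigen-free hosts, CD8 cells had lower levels than CD4 cells of 5 of the 7 genes. Of all genes 14.4% were higher and 14.3% lower (28.7% in either direction). Tnfsf11 had 4.68, 4.19 and 5.10 in unstimulated CD8 cells, against 7.91 and 7.79 in unstimulated CD4 cells, a difference of -3.19 ± 0.47 (adjusted p = 0.000224). The second probe set of Tnfsf11 had the opposite sign here, 0.31 ± 0.22, and was not called (adjusted p = 0.332). Fasl had 4.70, 3.93 and 5.71 in CD8, against 7.82 and 7.90 in CD4 cells, a difference of -3.08 ± 0.56 (adjusted p = 0.00118). Tnfrsf9 had 7.74, 7.89 and 8.04 in CD8, against 10.84 and 10.11 in CD4 cells, a difference of -2.59 ± 0.26 (adjusted p = 1.23e-05). These 3 genes are also those that rose in continuous against unstimulated CD8 cells, a comparison that uses the same unstimulated CD8 arrays. The beta-actin difference was 1.92 to 2.44 in unstimulated CD8 and 0.67 to 0.98 in unstimulated CD4 cells. The B cell marker mean was 5.48 to 7.24 in unstimulated CD8 and 5.03 to 5.79 in unstimulated CD4 cells. Their part in the differences between unstimulated cells was not tested. Tnfrsf18 (-0.49, adjusted p = 0.0349) and Cd27 (-0.74, adjusted p = 0.0452) were also lower, and each call was lost without either CD4 array (adjusted p = 0.0652 to 0.231) and after quantile normalization (0.0644 and 0.0726).

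Between transient cells, Tnfrsf4 was lower in CD8 (8.15, 7.92 and 8.02) than in CD4 cells (11.13 and 10.95), by 3.01 on the log2 scale (SE 0.30, adjusted p = 1.09e-05). Tnfsf11 (-2.86 ± 0.47, adjusted p = 0.000474) and Fasl (-3.08 ± 0.56, adjusted p = 0.00111) were also lower in transient CD8 cells by their brightest probe sets (-0.55 and -0.37 by the second, not called), so that 3 genes were lower and none higher, where 15.4% of all genes were higher and 11.7% lower (27.1% in either direction). The B cell marker mean was 7.38 and 8.77 in transient CD4 cells, against 5.59 to 6.08 in transient CD8 cells. The beta-actin difference was 2.42 to 2.73 in transient CD4 cells, against 0.66 to 1.02 in transient CD8 cells. The part of these in the differences between transient cells was not tested. Between continuous cells Tnfrsf9 and Tnfrsf18 were called, where 6.58% of all genes were higher and 4.62% lower (11.2% in either direction). Tnfrsf9 was higher in CD8 (10.89, 11.84 and 11.59) than in CD4 cells (9.52, 9.86 and 9.75), by 1.73 ± 0.23 (adjusted p = 0.000531). Tnfrsf18 was lower in CD8 cells, by 0.63 on the log2 scale (adjusted p = 0.0124), a call lost without the second CD4 (adjusted p = 0.0513) or the first CD8 array (adjusted p = 0.058). Fasl, at 8.92, 9.28 and 7.28 in CD8 and 7.01, 7.86 and 7.71 in CD4 cells, overlapped between them. Fas (-0.80, adjusted p = 0.0529) and Tnfrsf4 (-0.86, adjusted p = 0.0571) were not called as reported. Of 17 alternatives, 6 called Fas and 4 called Tnfrsf4.

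Other genes of the pathway were called in both directions on day 5. For continuous minus transient CD8 cells, of 12 other ligands 4 rose and 2 fell, of 20 other receptors none rose and 3 fell, and of 17 TRAF and NF-kB genes 1 rose and 7 fell. The list medians were 0.05, -0.12 and -0.39 in that order, against -0.05 over all genes. Of all genes 13.6% rose and 13.6% fell in this comparison. Tnfsf9, the ligand of 4-1BB, rose by 1.75 ± 0.25 (adjusted p = 0.000211) and Cd70 by 0.58 ± 0.17 (adjusted p = 0.0187). Tnfrsf25 (DR3) fell by 2.24 on the log2 scale, Ltb by 1.43 and Ikbkb, the NF-kB kinase subunit, by 1.10. Of 8 death receptor signalling genes, 1 rose and 2 fell: Bid by 0.91 ± 0.16, and Cflar, which fell by 0.77 on the log2 scale (adjusted p = 0.000608), and Casp6, which fell by 0.45. In CD4 cells, for continuous minus transient, of these ligands 2 rose and 2 fell, of receptors none rose and 4 fell, and of TRAF and NF-kB genes 2 rose and 4 fell. Of all genes 17.6% rose and 16.5% fell in that CD4 comparison. Tnfsf9 rose by 0.91 ± 0.28 there, and Tnfsf4, the ligand of OX40, fell by 0.95 on the log2 scale (adjusted p = 9.8e-05). The B cell and myeloid marker signal of the CD4 transient arrays, given above, moves with these CD4 differences, and its part in them was not tested.

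For transient minus unstimulated CD8 cells, 2 ligands rose, 1 receptor rose and 3 fell, and of TRAF and NF-kB genes 5 rose and 1 fell. Of all genes 16.3% rose and 15.5% fell. Traf1, an adaptor of OX40 and 4-1BB, rose by 2.23 ± 0.26 (adjusted p = 2.89e-05) and Nfkbie by 1.61 ± 0.19. For continuous minus unstimulated CD8 cells, 4 ligands rose and 1 fell, and of receptors none rose and 11 fell, with Tnfsf9 up by 2.19 ± 0.25 (adjusted p = 1.04e-05). Of all genes 21.4% rose and 25.9% fell in that comparison. Rank itself (Tnfrsf11a), the receptor of RANKL, had a mean of 4.90 over all arrays.

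The second probe sets gave a check within 3 genes. For Tnfrsf9, the second probe set followed the brightest one with r = 0.94 over 28 arrays, and it rose in continuous against transient CD8 cells by 4.29. The third probe set stayed at 3.80 to 5.73 on every array and did not follow either (r = -0.24 and 0.01). Fasl had a dimmer second probe set (r = 0.78), which rose by 1.70 in the same comparison, against 3.64 for the brighter one. Tnfsf11 had a second probe set (r = 0.71) that rose by 0.73 (adjusted p = 0.0147), against 2.37 for the brighter one. These correlations run across all groups and are a description. Calls over the 20380 probe sets often differed between probe sets of a gene across the 15 comparisons. Of 10 comparisons called by the brightest probe set of Tnfrsf9, the second called 9 in the same direction and the remaining, flat one none. Of 7 called by the brightest probe set of Fasl, the second called 3, and of 7 for Tnfsf11, the second called 1. Each of the 3 second probe sets also called 1 comparison that the brightest did not. For Tnfrsf9 it was lower in transient CD8 than CD4 cells (-1.03, adjusted p = 0.0258), and for Fasl higher in continuous than transient CD4 cells (0.74, adjusted p = 0.0477). For Tnfsf11 it was the CD8 minus CD4 difference of transient minus unstimulated (-0.86, adjusted p = 0.046).

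**Figure D4:**
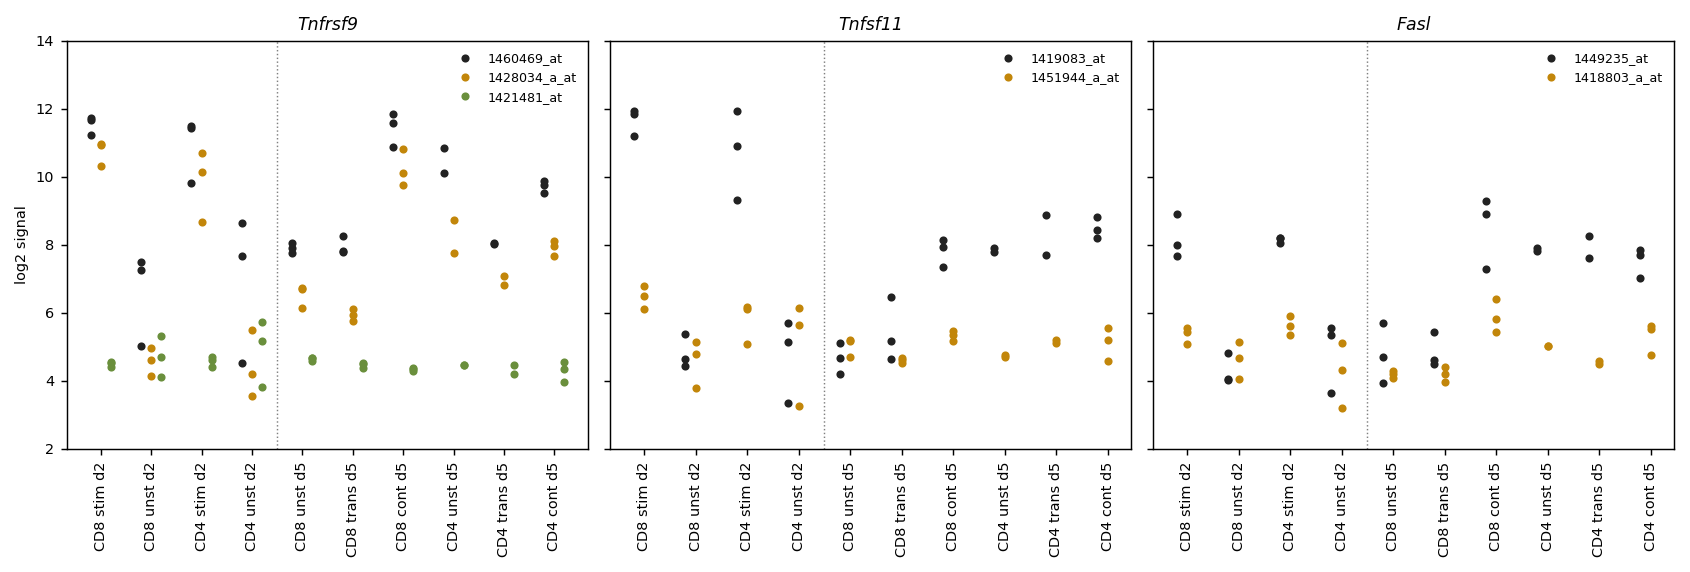
Log2 signal of every probe set of the 3 genes with more than 1 probe set, on each array, by group (d2 is day 2, d5 day 5). Each point is 1 array; the brightest probe set of each gene (black) was used in the tests, and the third probe set of Tnfrsf9 stays between 3.80 and 5.73 throughout.

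The order of the 10 group means differed between the genes. Tnfrsf4 and Tnfrsf18 were highest in stimulated CD8 and stimulated CD4 cells of day 2 (13.72 and 13.98 for Tnfrsf4, 12.24 and 12.25 for Tnfrsf18) and lower in all others, and the lowest mean of Tnfrsf4 was that of transient CD8 cells, 8.03. Tnfrsf9 ran from stimulated CD8 (11.54) and continuous CD8 (11.44), whose arrays overlapped, to unstimulated CD8 cells of day 2 (6.58). Tnfsf11 fell into stimulated cells of day 2 (10.72 to 11.66), then the 3 CD4 groups and continuous CD8 cells of day 5 (7.80 to 8.48), and then 4 groups at 4.66 to 5.43. Fasl had 6 groups at 7.53 to 8.49, whose neighbours in the order overlapped, and 4 groups at 4.30 to 4.85. Cd27 was above 10 in all 6 day 5 groups and at 7.66 to 8.47 in all 4 day 2 groups, which had no host. Fas had a narrow range, from 7.76 in stimulated CD8 cells to 4.97 in unstimulated CD8 cells of day 2, with most neighbours overlapping. These means use all arrays. Without the third unstimulated arrays, unstimulated cells of day 2 had means of 7.36 (CD8) and 8.15 (CD4) for Tnfrsf9, 10.60 and 10.31 for Tnfrsf18, 4.04 and 5.45 for Fasl and 5.49 and 5.51 for Fas, in that order. For Cd27 they were then 8.91 and 8.69, above the day 2 range given for all arrays. For Tnfrsf4 they were 9.24 and 10.11, and for Tnfsf11 5.01 and 5.42.

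Likeness of pattern was measured as Pearson's r over the 10 group means, without the third unstimulated arrays, among 3496 genes whose means span at least 2 units. It is a description, since the means share arrays and normalization. The closest genes were Chchd10 (0.96) and Anxa3 (0.95) for Tnfrsf4, and Hmgb3 (0.94) and Slc29a1 (0.91) for Tnfrsf9. Anxa3 (0.96) was also closest to Tnfrsf18, followed by Nupr1 (0.95). They were Ift20 and Dhx58 (both 0.98) for Cd27, Nek4 (0.94) for Tnfsf11, Phlda1 (0.94) for Fasl, and Plxnc1 (0.89) for Fas. With all arrays the ranks moved to 10 for Anxa3 and 29 for Nupr1 with Tnfrsf18, and to 27 for Slc29a1 with Tnfrsf9. The other genes named here then ranked from 1 to 5. Among the 7 genes, Tnfrsf4 and Tnfrsf18 were most alike (r = 0.92), Tnfrsf9 and Fasl had r = 0.84, and Cd27 ran opposite to Tnfrsf4 (r = -0.78).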

How the data were processed

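The deposited values are log2 signals of an Affymetrix mouse array, 1 per probe set, that the authors made with RMA, per the submitters' processing notes; its version and settings are not given in the sources used here. The deposited arrays did not share 1 distribution, since their medians differ, which bears on every day 2 difference. Of 22690 probe sets, 64 controls, 691 with several symbols and 1555 with none were left out. The other 20380 were named from the platform annotation (20351 updated through Entrez to the RefSeq table of GRCm38.p6) and gave 12393 genes, each represented by its brightest probe set on average across the 28 arrays; 4956 genes had more than 1. Groups and replicate numbers come from the sample titles.

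Day 2 (12 arrays, 8 residual degrees of freedom) and day 5 (16 arrays, 10) were fitted separately with limma 3.58.1 in R 4.3.3, two-sided, with Benjamini-Hochberg adjustment over the 12393 genes and calls at 0.05. The code was tested on simulated data. The alternatives changed which probe sets stand for a gene (all of them, or their mean), dropped the dimmest 30%, moderated with a trend and robustly, put all arrays into 1 fit, or kept only the groups compared. Others rescaled by quantiles or medians, weighted arrays, added a replicate block, called at 0.01, or left out each array, or the third unstimulated day 2 arrays together. The members and gene lists were chosen with earlier results of these data known. Genes named from the lists are at most 3 called per list and comparison, plus the partners Tnfsf4, Cd70, Tnfsf9, Tnfrsf11a and Tnfrsf11b. No test as reported paired arrays by replicate number, and the labels name no shared source. Deviations from the group means of same-numbered arrays correlated at 0.498, 0.358 and 0.149 for CD8 transient and unstimulated cells. The correlations were 0.423 and 0.283 for CD4 continuous and unstimulated cells. They were 0.448 and 0.395 for unstimulated CD8 and CD4 cells of day 5. In each other comparison a pair was below 0.1. A replicate block was run only as an alternative.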

Additional observations from a re-analysis of the deposited data

Results flagged for a closer look

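For 8 values the response of a gene on day 5 differed between CD8 and CD4 cells by a test of that difference (limma, adjusted over all genes). For transient minus unstimulated, CD8 minus CD4 was -2.70 for Tnfrsf4, 2.52 for Tnfrsf9 and 1.44 for Cd27. Of all genes 37.5% were called for this difference. For continuous minus transient, CD8 minus CD4 was 4.05 for Fasl, 2.18 for Tnfsf11, 2.16 for Tnfrsf4, 1.79 for Tnfrsf9 and -1.25 for Fas. Of all genes 18.9% were called for that difference. The second probe sets gave 0.69 for Tnfrsf9 (transient minus unstimulated), 0.96 for Fasl and 0.77 for Tnfsf11 (continuous minus transient), none of them called. Lineage and receptor, and antigen where continuous cells enter, cannot be told apart in these differences, and the CD4 transient arrays enter all 8.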

How the results depend on the processing

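Of 1876 values of single members under alternatives, 1735 kept their side of the threshold, 88 lost the call and 53 gained one. No called value turned direction, and 56 of the 1735 did, all of them not called (size up to 0.75, adjusted p of 0.255 or more). Of 44 called values, 19 held in every alternative run. The count of the 7 genes called moved by more than 1.5 times as follows, and by less in 31 further cases, arrays left out aside. With all 28 arrays in 1 fit it was 0 for CD4 transient minus unstimulated (2 as reported), continuous minus transient (2) and continuous minus unstimulated (1), for CD8 transient minus unstimulated (2), for the CD8 minus CD4 difference of transient minus unstimulated (3) and for continuous CD8 minus CD4 cells (2). In that fit it was 3 for CD8 continuous minus transient (6), 1 for the difference of continuous minus transient (5) and 2 for unstimulated CD8 minus CD4 cells (5). At a threshold of 0.01 it was 1 for CD4 continuous minus transient, 0 for CD4 continuous minus unstimulated, 3 for the difference of continuous minus transient, 3 for unstimulated and 1 for continuous CD8 minus CD4 cells. With the lowest 30% left out, or with trend and robust moderation, it was 2 for CD4 continuous minus unstimulated and 4 for continuous CD8 minus CD4 cells. Quantile normalization gave 7 for CD4 stimulated minus unstimulated (4), 2 for CD4 continuous minus unstimulated and 3 for unstimulated CD8 minus CD4 cells. Over all genes it called 1438 higher and 1484 lower in the first of these, against 1320 and 89 as deposited. In the second it called 1142 higher and 1391 lower, against 1229 and 1341. In the third it called 1502 higher and 1653 lower, against 1779 and 1776. Where no count over all genes is given, a shift of the members cannot be told from one of all genes. Median centring left 1 call for CD4 continuous minus unstimulated, but of Tnfrsf9 (-0.79, adjusted p = 0.044) and not of Tnfrsf4 (0.90, adjusted p = 0.0549). Array weights gave 1 for stimulated CD8 minus CD4 cells (0), 2 for CD4 continuous minus unstimulated and 5 for continuous CD8 minus CD4 cells. With only the groups compared it was 1 for CD4 continuous minus transient, 5 for transient (3) and 1 for continuous CD8 minus CD4 cells. Leaving out single arrays gave 3 to 4 for CD4 and 4 to 6 for CD8 stimulated minus unstimulated, 1 to 2 for CD4 continuous minus transient, 0 to 1 for CD4 continuous minus unstimulated, 4 to 7 for CD8 continuous minus transient, 3 to 4 for CD8 continuous minus unstimulated, 3 to 5 for the difference of continuous minus transient, and 3 to 4 for unstimulated and 1 to 4 for continuous CD8 minus CD4 cells. A replicate block gave 2 for CD4 continuous minus unstimulated (Tnfrsf9, adjusted p = 0.0385), called Cd27 in CD8 continuous minus transient (0.0392) and ended the Fas difference (0.0503); over all genes it called 1891 against 1409 without it (CD4, day 2), 1550 against 1035 (CD8, day 2) and 3870 against 3937 (CD8 transient minus unstimulated). Crossing the 2 CD4 pairs of transient and unstimulated arrays, chosen after seeing the data, called 2892 genes, against 2796 uncrossed and 2821 without a block. Cflar, for the CD8 minus CD4 difference of transient minus unstimulated, was 0.55 with the mean of probe sets (adjusted p = 0.0519), against -1.02 by its brightest probe set. The Cflar values given above also rest on that brightest probe set. As deposited, the median difference of all genes on day 2 was 0.14 in both lineages; quantile normalization put it at -0.149 in CD8 and -0.147 in CD4 cells and median centring at -0.482 and -0.484 in that order, and the share of called genes that were higher was 89.7%, 50.2% and 38% in CD8 and 93.7%, 49.2% and 36.8% in CD4 cells. Causes were not tested. The dim second probe sets of Fasl and Tnfsf11 limit what they show.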
